A study of Mus musculus with 6 samples.

Results

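The genes that make, store, take up and break down dopamine, serotonin and noradrenaline were followed in RNA of the brain without its cerebellum of Gb5-deficient and wild-type mice. They are Th, Ddc, Slc6a3, Slc18a2, Slc6a4, Tph2, Dbh, Slc6a2, Maoa and Maob, 10 of 18193 genes read by a probe set with a single gene name. They were chosen by name, and 17 of the 45037 probe sets of the array carry exactly 1 of these names: 4 for Slc6a2, 3 for Dbh, 2 each for Ddc and Maoa, and 1 for each of the other genes. The Gb5ko group is 3 samples labelled Gb5-deficient, replicates 1 to 3, and the Gb5wt group is 3 wild-type samples, replicates 4 to 6, with 1 Affymetrix array per sample. Gb5 is the G protein beta subunit encoded by Gnb5. The labels call the animals littermate cohorts matched for age and sex, and the sources used here give no age, sex, strain or knockout allele, nor whether RNA of several animals was pooled. The replicates were described as biological, so the spread reported here is that between samples.

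Monoamine neurons are few and their cell bodies lie in small nuclei, while their axons reach most of the brain. Dopamine neurons sit mainly in the ventral midbrain, with others in the hypothalamus and olfactory bulb, serotonin neurons in the raphe nuclei of the brain stem, and noradrenaline neurons in the locus coeruleus and other hindbrain groups. Tyrosine hydroxylase (Th) makes the dopamine precursor, tryptophan hydroxylase 2 (Tph2) makes the serotonin precursor, and aromatic amino acid decarboxylase (Ddc) converts both. Dopamine beta-hydroxylase (Dbh) turns dopamine into noradrenaline, the vesicular transporter VMAT2 (Slc18a2) loads all of these amines, the plasma membrane transporters of dopamine (Slc6a3), serotonin (Slc6a4) and noradrenaline (Slc6a2) take them back up, and the monoamine oxidases (Maoa, Maob) degrade them. Gb5 works with R7 RGS proteins, which shorten signalling by Gi and Go, the G proteins that D2-type dopamine receptors and several serotonin and adrenergic receptors use.

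Promoter windows of 8 of the 10 genes were found in the RefSeq table of mouse assembly GRCm38.p6, 9 windows in all, each running from 250 bases before to 50 bases after a transcript start. The windows of Th, Slc6a3 and Slc18a2 are shown because these 3 genes had the highest correlations with one another between arrays. That of Tph2 is shown because its correlations with them were negative, as were those of Ddc and Slc6a2. They run 5′ to 3′ on the strand of the gene, with capitals on every match, on either strand, to the cAMP response element TGACGTCA, the Nr4a-type site AAAGGTCA, the TATA box TATAAA or the GC box GGGCGG. Th lies at chr7:142899946-142900245 on the minus strand, Slc6a3 at chr13:73536497-73536796 on the plus strand, Slc18a2 at chr19:59260628-59260927 on the plus strand, and Tph2 at chr10:115184973-115185272 on the minus strand.
Th: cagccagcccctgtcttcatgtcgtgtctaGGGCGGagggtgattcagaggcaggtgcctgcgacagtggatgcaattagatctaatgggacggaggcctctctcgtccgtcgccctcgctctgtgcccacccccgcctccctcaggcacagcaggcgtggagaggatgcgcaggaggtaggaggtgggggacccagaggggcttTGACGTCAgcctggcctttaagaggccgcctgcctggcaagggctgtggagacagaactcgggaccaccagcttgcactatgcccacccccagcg
Slc6a3: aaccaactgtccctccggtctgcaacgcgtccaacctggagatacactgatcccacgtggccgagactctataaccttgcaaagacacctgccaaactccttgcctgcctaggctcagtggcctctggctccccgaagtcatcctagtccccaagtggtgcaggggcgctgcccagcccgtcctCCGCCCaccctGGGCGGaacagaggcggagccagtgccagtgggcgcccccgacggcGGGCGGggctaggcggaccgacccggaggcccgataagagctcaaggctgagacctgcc
Slc18a2: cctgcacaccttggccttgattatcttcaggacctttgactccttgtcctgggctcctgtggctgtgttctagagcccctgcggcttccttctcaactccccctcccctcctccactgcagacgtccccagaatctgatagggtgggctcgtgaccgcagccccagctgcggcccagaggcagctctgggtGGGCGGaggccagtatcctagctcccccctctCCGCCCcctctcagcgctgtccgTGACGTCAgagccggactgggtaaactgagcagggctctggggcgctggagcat
Tph2: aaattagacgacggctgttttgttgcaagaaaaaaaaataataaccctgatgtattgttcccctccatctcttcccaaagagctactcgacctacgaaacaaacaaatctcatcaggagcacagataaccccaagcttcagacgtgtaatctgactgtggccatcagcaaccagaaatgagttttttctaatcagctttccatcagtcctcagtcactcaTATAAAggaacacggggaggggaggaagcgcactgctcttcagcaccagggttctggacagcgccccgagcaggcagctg
The cAMP response element was present in the windows of Th, its first base at -45 from the start, and of Slc18a2, at -4, and in 1.79% of all 32851 windows of the table. The GC box was found in those of Th, Slc6a3, Slc18a2, Slc6a4 and Maoa and in 35.7% of all windows. The TATA box was found in those of Tph2, at -30, and of 1 of the 2 Ddc windows, and in 13.6% of all. The Nr4a-type site was found in the same Ddc window, where its match on the minus strand overlaps that of the TATA box by 3 bases, and in 1.51% of all. The Dbh window held none of these letters. A match of letters is a description and no evidence of binding.

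All values are RMA log2 intensities as deposited. RMA is the Affymetrix method that corrects background, equalizes the arrays and summarizes each probe set. Differences are Gb5ko minus Gb5wt on that log2 scale from a limma fit over all 45037 probe sets, adjusted by Benjamini-Hochberg, and a call is an adjusted p under 0.05. Each gene is described by its brightest probe set, the one with the highest mean over the 6 arrays. The targeted gene followed its labels: the brighter Gnb5 probe set read 3.67, 3.00 and 3.56 in Gb5ko arrays, against 8.79, 8.98 and 9.30 in Gb5wt arrays. Signals that mark the dissection or the sex of the donor differed inside the groups. Growth hormone (Gh), from the pituitary, read 5.08, 4.67 and 10.62 in Gb5ko arrays and 4.70, 4.20 and 6.21 in Gb5wt arrays. The Y-linked Eif2s3y read 2.96, 11.28 and 6.97 in Gb5ko arrays and 11.26, 6.05 and 4.05 in Gb5wt arrays. Kdm5d, also Y-linked, read 2.9, 6.8 and 3.1 in Gb5ko arrays and 7.2, 3.0 and 2.6 in Gb5wt arrays. The Y-linked Uty was likewise high in Gb5ko replicate 2 (5.46) and Gb5wt replicate 4 (6.41) alone. The X-linked Xist read 10.65, 8.31 and 10.62 in Gb5ko arrays and 4.96, 10.81 and 10.70 in Gb5wt arrays. Gb5ko replicate 2 read above 8 for both Eif2s3y and Xist. Of 7 general brain genes, listed for brain without cerebellum but not specific to it, all read above 9 in mean level, from 9.12 to 13.49. The groups did not overlap at 4 of these 7, where 21.5% of all probe sets did not overlap: the synaptic gene Snap25, the GABA enzyme Gad1 and the myelin gene Mbp were lower in every Gb5ko array, by differences of -0.33, -0.33 and -0.20, and the glutamate transporter Slc17a7 was higher, by 0.27. Of 5 cerebellar markers, the granule cell genes Gabra6 and Cbln3 were dim, at means of 3.48 and 4.53 in Gb5ko and 3.18 and 4.11 in Gb5wt, while Cbln1, Pcp2 and Car8 had means over all arrays of 10.84, 8.64 and 8.11. The cerebellar list had a median difference of 0.30. Gabra6, Pcp2 and Cbln1 were higher in every Gb5ko array, as were 12.5% of all probe sets. This list mixes dim and bright genes, and the amount of cerebellum in each sample was not measured. None of these 12 markers was called by limma (smallest adjusted p = 0.255), and their part in the differences below was not tested. The 13 measured Hox genes of the caudal brain stem all had means below 5, from 2.45 to 4.86, so the arrays do not show how much of the hindbrain each sample held.

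None of the 17 probe sets of the monoamine genes was called by limma between Gb5ko and Gb5wt, where 0.0266% of all probe sets were. None passed at an adjusted p under 0.1 either, as 0.0977% of all probe sets did, and the smallest adjusted p among the 17 was 0.233. All 10 brightest probe sets had a small positive difference, from 0.02 for Maob to 0.42 for Slc6a3, with a median of 0.08. Over the brightest probe sets of all 18193 genes the median was 0.05 and 59.9% were positive. Of the 17 probe sets 16 were positive, against 55.5% of all probe sets. An unadjusted p under 0.05 was found for 2 of the 17, both positive and both of noradrenaline genes, against 14.4% of all probe sets in either direction and 8.09% with a positive difference. The groups did not overlap at 2 of the 17, against 21.5% of all probe sets. For 9 of the 10 genes the 95% interval of the difference lay inside a 1.5-fold change in either direction, the exception being Slc6a3. Over all 17 probe sets it did so for 14, the others being a Dbh probe set (to 0.72) and a Slc6a2 probe set (to 0.61) that are not the brightest of their genes. These intervals are not adjusted for the number of genes, and for dim probe sets RMA reads a change smaller than it is.

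**Figure D1:**
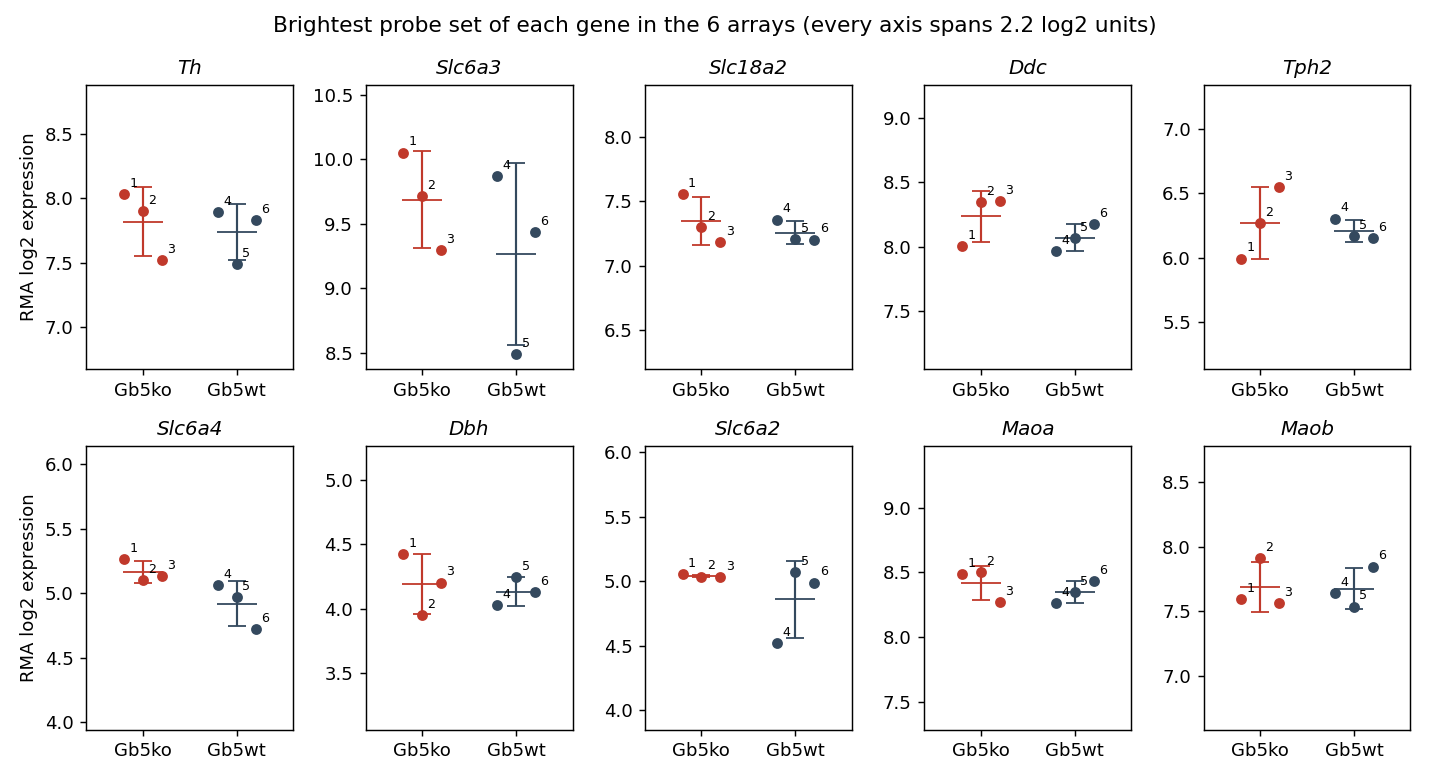
RMA log2 expression (y axis) of the brightest probe set of each gene in Gb5ko (left, red) and Gb5wt (right, dark) arrays, with replicate numbers beside the points, the group mean as a bar and its SD as whiskers (n = 3 each). The groups overlap in every panel except Slc6a4, and Slc6a3 has the widest spread, from 8.49 to 10.05.

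Among the dopamine genes, Th, the rate-limiting enzyme of catecholamine synthesis, read 8.03, 7.90 and 7.52 in Gb5ko arrays and 7.89, 7.49 and 7.83 in Gb5wt arrays. The groups overlapped, and the lowest array of each lay near 7.5. Th averaged 7.82 ± 0.27 in Gb5ko and 7.74 ± 0.22 in Gb5wt (SD, n = 3 each), a difference of 0.08 ± 0.16 (SE; 95% interval -0.28 to 0.44; limma adjusted p = 0.852). Its probe set was brighter than 70.1% of all probe sets. Because noradrenaline neurons also use Th, this value sums both kinds of cell. In whole tissue, fewer cells of a type and less RNA per cell cannot be told apart.

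Slc6a3, the dopamine transporter, read 10.05, 9.71 and 9.30 in Gb5ko arrays and 9.87, 8.49 and 9.43 in Gb5wt arrays. Gb5wt replicate 5 lay far below the other 5 arrays, and those overlapped between genotypes. The means were 9.69 ± 0.38 in Gb5ko and 9.27 ± 0.71 in Gb5wt (SD, n = 3 each). The difference of 0.42 ± 0.32 (SE; 95% interval -0.30 to 1.14; limma adjusted p = 0.565) was the largest of the 10 genes and the least precise. Without Gb5wt replicate 5 it was 0.03 (adjusted p = 0.965), and without Gb5wt replicate 4 it was 0.72 (adjusted p = 0.498).

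The enzymes and carriers that several amines share were steadier. Ddc read 8.01, 8.35 and 8.35 in Gb5ko arrays and 7.97, 8.07 and 8.18 in Gb5wt arrays, a difference of 0.17 ± 0.13 (SE; limma adjusted p = 0.561). Its lowest Gb5ko array, replicate 1, fell among the Gb5wt values, and without it the difference was 0.28. Without Gb5ko replicate 3 it was 0.11. The other Ddc probe set was dim, with a mean of 2.92, and differed by 0.05. Slc18a2, the vesicular transporter, read 7.55, 7.30 and 7.19 in Gb5ko arrays and 7.36, 7.21 and 7.20 in Gb5wt arrays. It differed by 0.09 ± 0.12 (SE; limma adjusted p = 0.769). The highest and the lowest of its 6 arrays were both Gb5ko.

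Of the serotonin genes, Tph2, the neuronal enzyme that starts serotonin synthesis, read 6.00, 6.27 and 6.55 in Gb5ko arrays and 6.30, 6.17 and 6.15 in Gb5wt arrays. The Gb5wt arrays lay inside the range of the Gb5ko arrays. The means were 6.27 ± 0.28 in Gb5ko and 6.21 ± 0.083 in Gb5wt (SD, n = 3 each), a difference of 0.06 ± 0.14 (SE; limma adjusted p = 0.874). Slc6a4, the serotonin transporter, read 5.26, 5.10 and 5.13 in Gb5ko arrays and 5.06, 4.97 and 4.72 in Gb5wt arrays. It was the only brightest probe set of the 10 genes whose groups did not overlap, and the nearest arrays of the 2 groups, at 5.10 and 5.06, were close. The difference was 0.25 ± 0.12 (SE; 95% interval -0.02 to 0.51), 1.19-fold, and did not pass (limma adjusted p = 0.371). The exact permutation p was 0.1, and no smaller one can be had from 3 arrays a group. Without Gb5wt replicate 6 the difference was 0.15. Of the array's probe sets, 12.5% were higher in every Gb5ko array than in any Gb5wt array.

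The noradrenaline genes were read by 7 probe sets, all with a mean of 4.95 or less, and none was shown to lie above background. The brightest Dbh probe set read 4.42, 3.95 and 4.20 in Gb5ko arrays and 4.03, 4.24 and 4.13 in Gb5wt arrays, a difference of 0.06 ± 0.14 (SE; limma adjusted p = 0.872). The other 2 Dbh probe sets differed by 0.15 and by 0.38, the last with an unadjusted p of 0.0302 and an adjusted p of 0.301. That probe set is of the x type, whose probes can match other transcripts, and its mean was 3.40. For Slc6a2, the noradrenaline transporter, the brightest probe set read 5.05, 5.04 and 5.03 in Gb5ko arrays and 4.52, 5.07 and 4.99 in Gb5wt arrays. Here Gb5wt replicate 4 alone lay low, and the difference of 0.18 ± 0.15 (SE; limma adjusted p = 0.587) shrank to 0.01 without it and was 0.29 without Gb5wt replicate 5. The other 3 Slc6a2 probe sets did not share a direction, at 0.34, 0.12 and -0.12. The first of these read 3.81, 3.82 and 3.82 in Gb5ko arrays and 3.41, 3.56 and 3.47 in Gb5wt arrays, without overlap (unadjusted p = 0.00639, limma adjusted p = 0.233, exact permutation p = 0.1).

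The monoamine oxidases, which glia and neurons both express, had a median difference of 0.05. Maoa read 8.49, 8.50 and 8.27 in Gb5ko arrays and 8.26, 8.35 and 8.43 in Gb5wt arrays, a difference of 0.07 ± 0.11 (SE; 95% interval -0.17 to 0.32; limma adjusted p = 0.788) that lay between 0.032 and 0.15 with 1 array left out, lowest without Gb5wt replicate 4 and highest without Gb5ko replicate 3. Its second probe set differed by 0.02. Maob read 7.60, 7.91 and 7.56 in Gb5ko arrays and 7.64, 7.54 and 7.85 in Gb5wt arrays, a difference of 0.02 ± 0.13 (SE; 95% interval -0.28 to 0.32; limma adjusted p = 0.965). Both genes lie on the X chromosome. The arrays highest in Eif2s3y, Gb5ko replicate 2 and Gb5wt replicate 4, read 8.50 and 8.26 for Maoa and 7.91 and 7.64 for Maob. With both arrays left out the difference was -0.0095 for Maoa and -0.11 for Maob. The part of donor sex in these values was not tested.

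**Figure D2:**
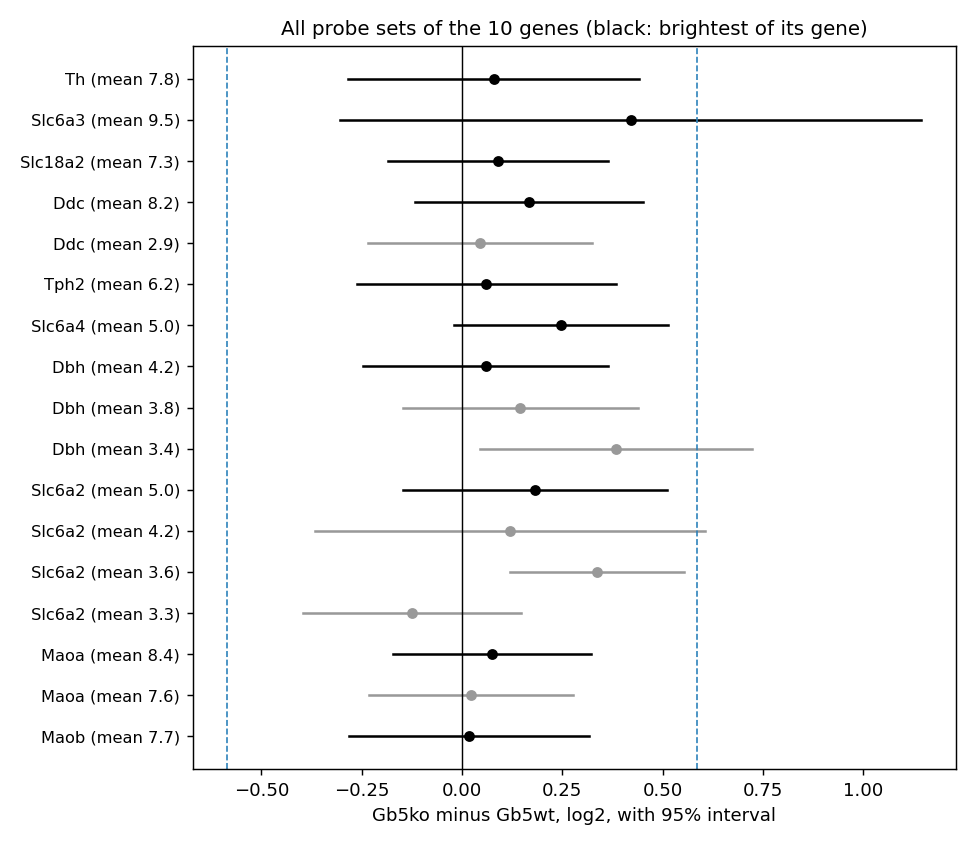
Gb5ko minus Gb5wt difference (x axis, log2) with its 95% interval from limma for each of the 17 probe sets, with the mean level over the 6 arrays in the row label; black marks the brightest probe set of a gene and dashed lines a 1.5-fold change. Of the 10 black intervals 9 lie inside the dashed lines, and that of Slc6a3 reaches 1.14.

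By transmitter, the probe sets of the dopamine genes were the brightest and those of the noradrenaline genes the dimmest. In percentiles of mean level over all probe sets, Slc6a3 stood at 85.0 and Th at 70.1, Tph2 at 54.4 and Slc6a4 at 41.6, and Slc6a2 at 40.4 and Dbh at 30.9. Ddc stood at 73.8, Slc18a2 at 65.2, Maoa at 75.8 and Maob at 69.2. These ranks describe signal over the array. They are no ranking of transcript abundance, since each probe set binds with its own strength. Median differences between genotypes were 0.25 for the dopamine pair, 0.15 for the serotonin pair, 0.12 for the noradrenaline pair, 0.13 for Ddc and Slc18a2 and 0.05 for the oxidases. Each is a median of 2 genes, and their order is not stable when an array is left out. The dopamine median then ran from -0.0052 without Gb5wt replicate 5 to 0.44 without Gb5wt replicate 4, and the serotonin median from 0.092 without Gb5wt replicate 6 to 0.21 without Gb5wt replicate 4. The noradrenaline median ran from 0.0083 without Gb5wt replicate 4 to 0.20 without Gb5wt replicate 5, and was 0.25 with the probe set of largest SD of each gene. The oxidase median ran from -0.031 without Gb5ko replicate 2 to 0.12 without Gb5ko replicate 3, and only that of Ddc and Slc18a2 stayed close, from 0.11 to 0.14.

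Spread between arrays was uneven among the genes. The SD between arrays of 1 genotype, pooled over the 2 groups, was 0.57 for Slc6a3, larger than for 99.6% of all probe sets and for 99.8% of the window made of it and the 250 probe sets next to it in mean level on each side. Without Gb5wt replicate 5 this SD was 0.36. Th followed at 0.24, percentile 84.8 of all probe sets and 87.2 among those of like level. Slc6a2, Tph2, Dbh and Maob lay between 0.18 and 0.21, Ddc, Slc18a2 and Slc6a4 between 0.14 and 0.16, and Maoa at 0.11. Over all probe sets the median was 0.15. The 2 oxidases had percentiles of 27.4 and 62.4, Slc6a4 had 42.7, and the remaining genes lay between 47.6 and 75.6.

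**Figure D3:**
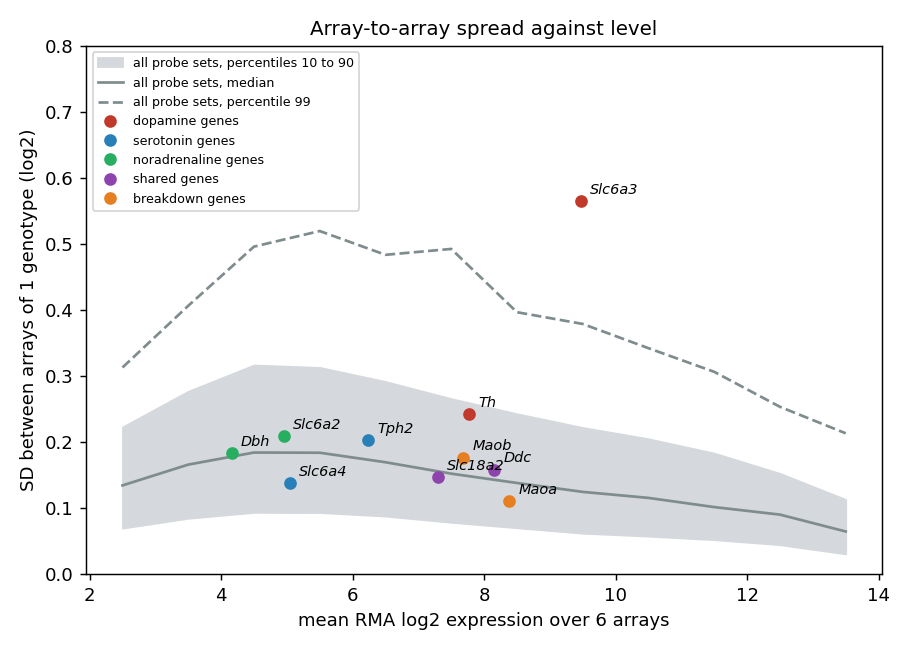
SD between arrays of 1 genotype (y axis, log2, pooled over both genotypes) against mean RMA log2 expression over the 6 arrays (x axis), for the 10 genes over the median, percentiles 10 to 90 and percentile 99 of all probe sets in bins of 1 log2 unit. Slc6a3, at 0.57, lies above the line of percentile 99, and the other 9 genes lie inside the grey band.

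The high and low arrays of Slc6a3 were those of Th. Relative to its mean over the 6 arrays, Slc6a3 lay at 0.57, 0.24 and -0.18 in Gb5ko arrays and at 0.40, -0.98 and -0.04 in Gb5wt arrays. Th lay at 0.26, 0.12 and -0.26 in Gb5ko arrays and at 0.12, -0.29 and 0.05 in Gb5wt arrays. Gb5ko replicate 1 was the highest array for both genes and Gb5wt replicate 5 the lowest. Gb5ko replicate 1 was also the highest for Slc18a2, Slc6a4 and Dbh, at 0.25, 0.22 and 0.26. That array had the lowest limma array weight of the 6, 0.47, a weight that is lower the farther an array's probe sets lie from the fit. Its mean level was also the highest in the dopamine, serotonin and noradrenaline neuron, cofactor, amine breakdown, other amine, Hox, hypothalamic and cerebellar lists. It was not the highest in the receptor, pituitary, pineal, mast cell and sex lists. For the list of general brain genes it was the lowest, at 10.98. The part of this array in the correlations was not tested. Across the 6 arrays the Pearson r of the pair was 0.89 (exact permutation p = 0.00278; p = 0.125 after Benjamini-Hochberg over 45 pairs) and Spearman's rho 0.94 (exact permutation p = 0.0167; adjusted p = 0.75). Without the 2 arrays farthest from the median of Th, Gb5ko replicate 3 and Gb5wt replicate 5, r was 0.90. Gb5ko replicate 1 was among the arrays kept. Over all 6 arrays, r was 0.91 after the group means were subtracted.

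Slc18a2 had its highest correlations with the dopamine pair. Its r was 0.78 with Th (exact permutation p = 0.0611), 0.72 with Slc6a3 (exact permutation p = 0.111) and 0.65 with Slc6a4 (exact permutation p = 0.182). After the group means were subtracted, its r was 0.78 with Th, 0.68 with Slc6a3, 0.63 with Slc6a4 and -0.94 with Ddc. Tph2 had an r of -0.56 with Th, -0.18 with Slc6a3 and -0.61 with Slc18a2. In the same order r was -0.33, -0.13 and -0.55 for Ddc and -0.28, -0.38 and -0.155 for Slc6a2. Tph2 had its highest array in Gb5ko replicate 3 and its lowest in Gb5ko replicate 1. Within the other pairs r was 0.06 for Tph2 and Slc6a4, 0.45 for Dbh and Slc6a2 and 0.60 for Maoa and Maob. Of the 45 pairs, 1 had an unadjusted exact p under 0.05 and 0 an adjusted one. With 6 arrays, 34 of 18183 genes outside the 10 had an r over 0.95 with Slc6a3, 58 with Slc6a4 and 33 with Dbh. The closest were Dact3 (0.996), Nlgn3 (0.995) and Terb1 (0.994) for Slc6a3, Spink8 (0.997), Tmprss3 (0.991) and Gins2 (0.987) for Slc6a4, and Zfp33b (0.993), Prol1 (0.990) and Specc1l (0.990) for Dbh.

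**Figure D4:**
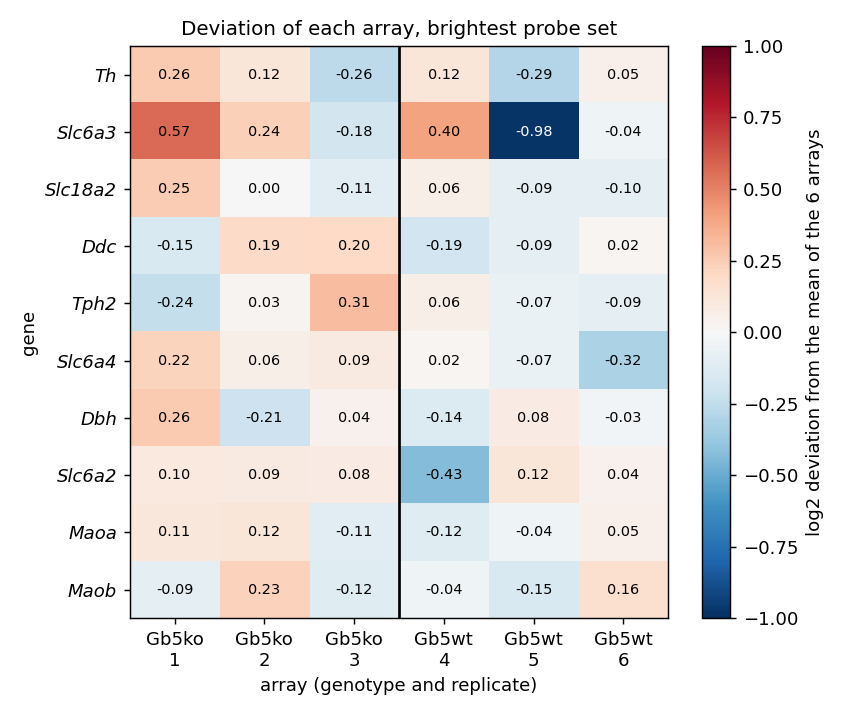
Deviation of each array (columns, Gb5ko left and Gb5wt right of the line) from the mean of the 6 arrays for the brightest probe set of each gene (rows), in log2 units and printed in each cell. Th, Slc6a3, Slc18a2, Slc6a4 and Dbh are highest in Gb5ko replicate 1, and Slc6a3 is lowest in Gb5wt replicate 5, at -0.98.

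Genes around these pathways gave no call either. Of 63 genes in 7 lists, 49 had a probe set with a single gene name, 0 of them passed (0.022% of all genes did) and the smallest adjusted p was 0.203. Their median difference was 0.08, against 0.05 over all genes, with 32 of 49 positive. An unadjusted p under 0.05 was reached by 8 with a positive and 2 with a negative difference, against 9.89% and 5.68% of all genes. In whole tissue, the signal of a gene listed for a kind of neuron can also come from other cells.

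Of 14 genes that mark dopamine neurons, 12 had a positive difference, 3 of them at an unadjusted p under 0.05, and the list median was 0.17, where 59.9% of all genes were positive. The 8 genes of this list with a mean below 5 were all positive, as were 4 of the 6 brighter ones. The neurotensin receptor Ntsr1 read 7.87, 7.73 and 7.85 in Gb5ko arrays and 7.27, 7.52 and 7.36 in Gb5wt arrays, without overlap (0.43 ± 0.11, SE; limma adjusted p = 0.203). The D2 receptor Drd2, which is also abundant in striatal neurons, differed by 0.35 ± 0.14 (SE; limma adjusted p = 0.297). Pitx3, a transcription factor of midbrain dopamine neurons, differed by 0.39 ± 0.13 (SE; limma adjusted p = 0.257) at means of 3.01 in Gb5ko and 2.62 in Gb5wt, near the low end of the array. The nicotinic subunit Chrna6 read 5.60, 4.94 and 4.92 in Gb5ko arrays and 5.01, 4.43 and 4.73 in Gb5wt arrays (0.43 ± 0.21, SE; limma adjusted p = 0.374). Its highest array was Gb5ko replicate 1 and its lowest Gb5wt replicate 5, as for Slc6a3. The same arrays were the highest and the lowest for genes outside this list, among them Adra2c, Slc17a7, Gabra6, Cbln3 and the hypothalamic peptide gene Hcrt. Nr4a2, a factor needed for dopamine neurons that cortex also expresses, differed by -0.07 and the aldehyde dehydrogenase Aldh1a1 by -0.05.

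Of 5 measured serotonin neuron genes 1 was positive, with 0 at an unadjusted p under 0.05 and a median of -0.06. The autoreceptor Htr1a differed by -0.15, and the transcription factors Gata3, Gata2 and Nkx2-2 by 0.16, -0.06 and -0.07. Of 8 measured noradrenaline neuron genes 6 were positive, with a median of 0.03. The autoreceptor Adra2c differed by 0.31 ± 0.13 (SE; limma adjusted p = 0.318) and the peptide gene Gal by 0.50 ± 0.23 (SE; limma adjusted p = 0.355). The transcription factors Phox2a, at means of 3.05 in Gb5ko and 2.82 in Gb5wt, and Tfap2b, at 4.46 in Gb5ko and 4.97 in Gb5wt, differed by 0.22 and -0.51 with adjusted p values of 0.324 and 0.315.

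The cofactor tetrahydrobiopterin is used by both hydroxylases. Of its 6 measured genes 4 were positive, with 0 at an unadjusted p under 0.05 and a median of 0.11. Spr, Pcbd1 and Gchfr differed by 0.30, 0.23 and 0.16 and Qdpr, which regenerates the cofactor, by -0.10. Of 5 measured genes of amine breakdown and extraneuronal uptake, an unadjusted p under 0.05 was reached by 2 with a positive difference and 1 with a negative one. The plasma membrane monoamine transporter Slc29a4 read 9.82, 9.49 and 9.33 in Gb5ko arrays and 9.15, 9.03 and 9.01 in Gb5wt arrays, without overlap (0.49 ± 0.13, SE; limma adjusted p = 0.225). Akr1a1, an aldehyde reductase, differed by 0.28, Hnmt, which methylates histamine, by -0.30, and Aldh2 by 0.19, with limma adjusted p values of 0.279, 0.310 and 0.517.

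Among genes of other amine and acetylcholine neurons, Pnmt, which makes adrenaline, differed by 0.51 ± 0.18 (SE; limma adjusted p = 0.276). Tph1, Slc5a7 and Hdc differed by 0.26, -0.17 and 0.13. Of 6 measured dopamine and adrenergic receptors, Drd2 and Adra2c are given above, Drd4 differed by -0.19 and Drd1 by 0.08. Markers of mast cells and of the pineal gland were dim. All 7 mast cell genes had means from 2.28 to 4.08, and the 3 measured pineal genes from 3.20 to 4.95. Pituitary markers, 7 measured, had a mean level of 4.21, 3.74 and 6.26 in Gb5ko arrays and 3.70, 3.85 and 4.45 in Gb5wt arrays, and hypothalamic peptide genes, also 7, of 8.27, 7.79 and 7.82 in Gb5ko arrays and 7.70, 7.92 and 7.94 in Gb5wt arrays. Gb5ko replicate 3, with the highest pituitary signal, had the lowest Gb5ko value of Th, Slc6a3 and Slc18a2 and the highest of Tph2. Gb5wt replicate 6, with the highest pituitary signal of its group, had the middle Gb5wt value of Th and Slc6a3. It had the lowest Gb5wt value of Slc18a2 and Tph2. With the arrays of highest Gh, Gb5ko replicate 3 and Gb5wt replicate 6, left out, Slc6a3 differed by 0.70 (limma adjusted p = 0.513) and Tph2 by -0.10 (adjusted p = 0.847). The part of the dissection in these values was not tested further.

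**Figure D5:**
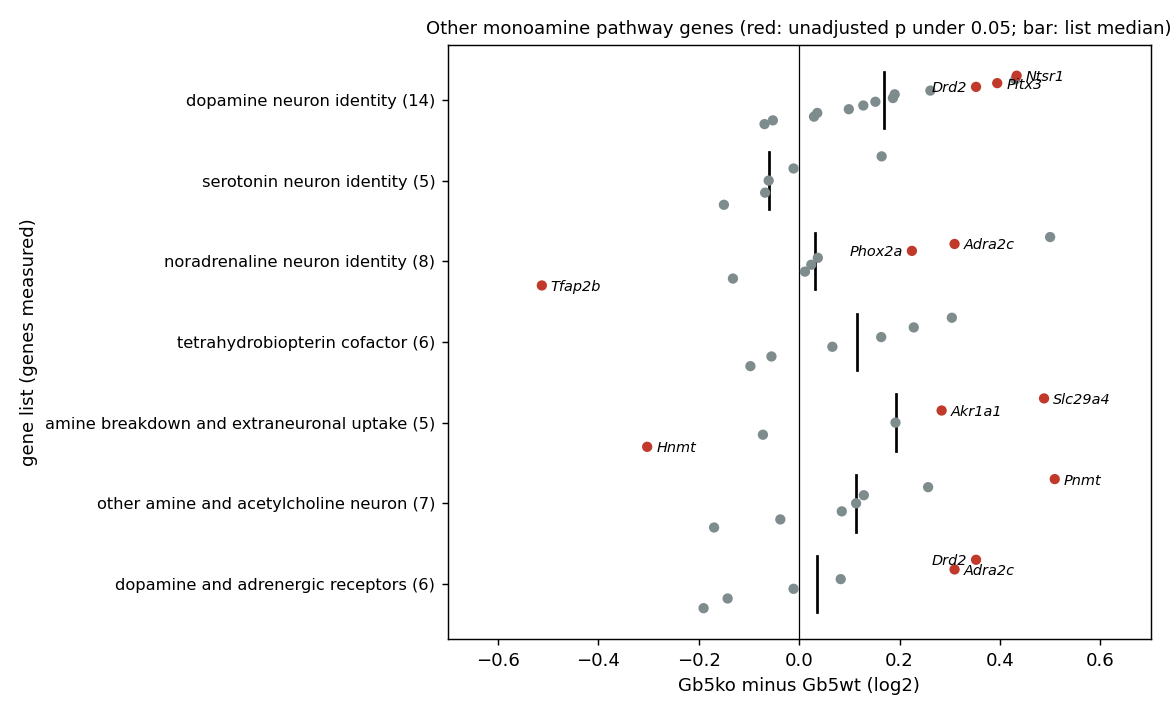
Gb5ko minus Gb5wt difference (x axis, log2) of every measured gene in 7 lists of monoamine pathway genes (y axis), with the list median as a bar and genes at an unadjusted p under 0.05 in red and named. No gene passed after adjustment over all probe sets, and the dopamine neuron list has 12 of 14 genes right of 0.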

How the data were processed

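The deposited table holds log2 values for 45101 probe sets in 6 arrays, made with RMA and Partek, per the submitters' processing notes, which give no version. They were used as deposited by the authors, with no further normalization; array medians ran from 5.81 to 5.85. The 64 control probe sets were left out. The platform annotation gave 1 gene to 34945 of the other 45037 probe sets, several to 932 and none to 9160; 34741 matched RefSeq genes (GRCm38.p6) by Entrez identifier. No detection calls were used, and the number of arrays limits precision: the median standard error of a difference was 0.123.

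Gb5ko and Gb5wt were set against each other in a two-sided limma fit (lmFit, eBayes; limma 3.58.1, R 4.3.3) on all 6 arrays without a filter, with 4 residual and 5.05 prior degrees of freedom. Tested on simulated data for the 45037 probe sets, the fit of Gb5ko minus Gb5wt called 13 of the 50 probe sets altered 1.5-fold, 33 of the 50 altered 2-fold, 46 of the 50 altered 4-fold, all 50 altered 8-fold, and 6 unaltered ones. The simulated noise was independent between probe sets. More probe sets were called there than the 12 of the real fit, so the real fit may detect a smaller share. Correlations between the 10 genes used exact permutation over the 6 arrays. The text names every probe set of the 10 genes, up to 4 genes of each list with the smallest p, and the 3 genes most correlated with Slc6a3, Slc6a4 and Dbh. Nr4a2, Aldh1a1 and the brain and cerebellar markers were named after their values were seen, and so was the choice of promoter windows. The genes and lists were chosen with earlier results of these data known. Alternatives covered dim probe sets, normalization, variance model, array weights and left-out arrays. Figures were drawn with matplotlib 3.10.9.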

Additional observations from a re-analysis of the deposited data

How the results depend on the processing

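No paired analysis was made. Replicates are numbered 1 to 3 in Gb5ko and 4 to 6 in Gb5wt, and the sources used here do not say which samples were littermates. The count of called probe sets of the 10 genes stayed at 0 in all 13 alternative fits and at an adjusted p under 0.1, and was 2 at an unadjusted p under 0.05; in the same fits 8 to 27 of all probe sets were called. The count of pathway genes called stayed at 0 in those fits. Of 216 recomputed differences, 196 kept their sign and 20 turned, all uncalled on both sides. The median of the dopamine pair was 0.49 without both arrays of highest Gh and lay between -0.0052 and 0.44 with 1 array left out; the Slc6a3 residual SD lay between 0.36 and 0.65, the lowest without Gb5wt replicate 5.
With 1 array left out, turned differences were in Th (-0.044 to 0.23), Tph2 (-0.077 to 0.20), Dbh (-0.056 to 0.18), Slc18a2 (-0.015 to 0.17), Maob (-0.094 to 0.10) and the dimmer probe sets of Ddc (-0.056 to 0.11), Maoa (-0.052 to 0.074) and Slc6a2 (-0.17 to 0.29). Without turning, a dim Dbh probe set ran from 0.077 to 0.25 and a dim Slc6a2 one from -0.20 to -0.037. Quantile normalization gave -0.0086 for the dimmer Maoa probe set and -0.021 for Maob, and array weights -0.014 for Dbh. Without the arrays of highest Gh, Tph2 was -0.10 and the Slc6a2 probe set that ran from -0.17 to 0.29 was -0.16. Without those of highest Eif2s3y, Maoa was -0.0095, its dimmer probe set -0.043 and Maob -0.11. The cause was not tested. With dim probe sets left out, 0 noradrenaline probe sets remained to be compared.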
